A study of Mus musculus with 12 samples.

Results

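Complement and coagulation are the 2 protease cascades of blood plasma, and the genes described here are 29 of their members. All probe sets listed for exactly 1 of these genes were taken, which gave 36 probe sets of 27 genes, out of 12393 genes on the arrays. Complement C5 was matched under Hc, its mouse symbol. C3 is not analysed here, and the probe set that covers C4b is listed for both C4a and C4b, so that it names neither gene. Lung and liver of female nude NCR mice, a strain without a thymus and with few mature T cells, were measured 7 days after an orthotopic injection. The tumor-bearing mice had received cells of 4T1, a mouse mammary carcinoma line, and the control mice phosphate-buffered saline (PBS). There were 3 arrays for each of the 4 groups, namely tumor-bearing liver, control liver, tumor-bearing lung and control lung, 1 array per tissue sample. Tissue from 4T1-injected animals is titled pre-metastatic, and the comparison asks what differs in these organs at that time.

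Complement marks foreign or damaged surfaces. It is started by the C1 proteases on antibody, by mannose-binding lectins on sugars, or by the alternative pathway, and its terminal components assemble into a pore in the target membrane. Coagulation is a chain of serine proteases that ends in thrombin and a fibrin clot, with antithrombin and protein C as brakes and plasmin as the enzyme that dissolves the clot. Hepatocytes make most of these proteins and secrete them into plasma, and several complement genes are also transcribed by macrophages, fibroblasts and epithelial cells.

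The deposited values are log2 GCRMA summaries per probe set, with a shared lowest value of 2.044, and each gene is represented by its probe set with the highest mean over the 12 arrays. The values of different genes cannot be set against each other on this scale. Hepatocyte transcripts were not equal among the lung arrays. Alb, the albumin gene, read 14.39 on the array of tumor-bearing lung replicate 1 and 14.65 on that of control lung replicate 3, while the remaining 4 lung arrays read 8.96 to 11.08. Over the 7 of 8 hepatocyte markers that were matched, the summed level (log2) was 11.26 to 15.11 in tumor-bearing and 11.83 to 15.57 in control lungs, and 18.84 to 18.88 in tumor-bearing and 18.79 to 18.82 in control livers. The liver array of control replicate 2 had a summed level of 6.93 for the alveolar markers, against 4.70 to 4.98 on the other liver arrays. Sftpc carried most of that sum, at 6.54 against 2.24 to 2.63 on the other liver arrays. Sftpa1 read 3.79 there, against 2.29 to 2.56, while Sftpb (2.53) and Ager (3.20) were not raised. Bulk samples cannot tell fewer cells of a type from less RNA per cell.

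In liver, the members stood slightly higher in tumor-bearing mice, and no single gene passed the test. Of the 27 genes, 22 had a higher mean in tumor-bearing livers (81.5%), where 39.6% of all 7712 genes tested did. This lean was not particular to the members. Higher means were found for 85.7% of 7 hepatocyte markers and 83.3% of 12 further soluble complement genes. The share was 71.4% of 21 further coagulation and fibrinolysis genes and 58.8% of 17 acute phase genes. The median log2 difference of the members was 0.09, against -0.07 over all genes tested, and it was 0.160 without tumor-bearing replicate 3. At a limma adjusted p under 0.05, 0 members passed, where 1.87% of all genes did. Cfi passed with no filter on low values, where 62 of 12393 genes did. Cfi and Serpinf2 passed with a variance trend in eBayes, where 302 of 7712 genes did. Masp2 passed with all 12 arrays in 1 fit, where 729 of 7712 genes did. Its lung values all stood at the lowest value and added no spread to that fit. At an unadjusted p under 0.05 there were 6 members, all higher in tumor-bearing livers, where 25.9% of all genes passed that level, 8.17% higher and 17.7% lower. With no overlap between groups, 12 members were higher (10.4% of all genes) and 1 was lower (22.7% of all genes), and 4 members had an adjusted p under 0.1 (10.7% of all genes). The differences were small, since 21 members lay within 0.25 of 0 on the log2 scale, and for 24 of the 27 the 95% interval of limma stayed within 1 log2 unit, a doubling or halving. Arrays differed among themselves by a median SD of 0.0766 per member and group. The members were read on the same 6 arrays and are not independent of each other.

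**Figure D1:**
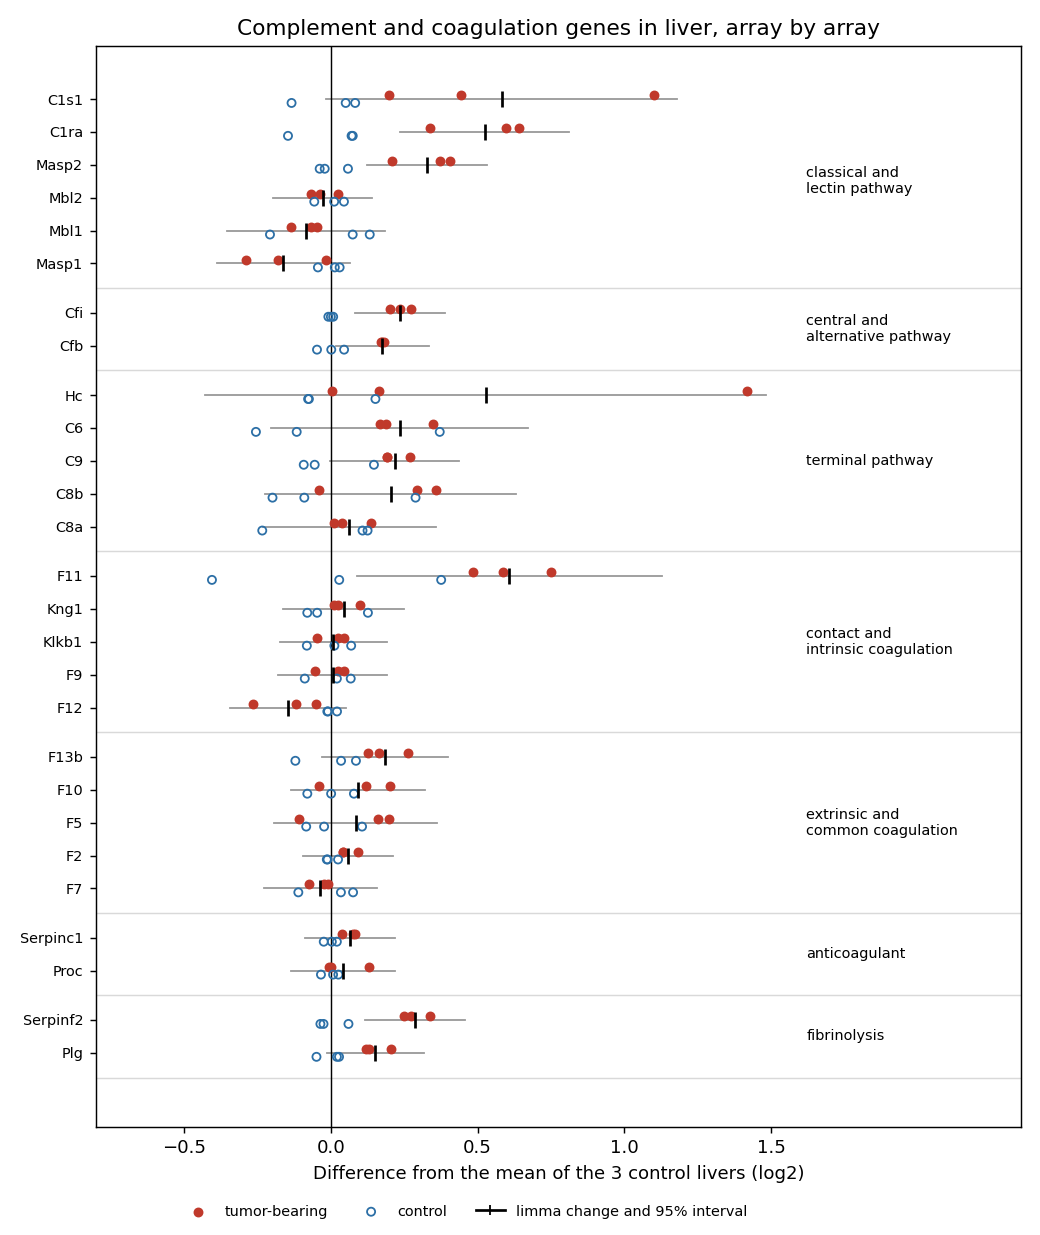
Each of the 27 genes in liver, grouped by role, with the difference of every array from the mean of the 3 control livers on the x axis (log2). Filled points are tumor-bearing and open points control livers, and the black mark and grey line give the limma difference and its 95% interval. C1s1, C1ra, Masp2, Cfi, Cfb, C9, F11, F13b, F2, Serpinc1, Serpinf2 and Plg have all 3 tumor-bearing arrays to the right of the control arrays. Hc owes its mean to 1 array.

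Both starting proteases of the classical pathway had all 3 tumor-bearing livers above the controls. C1ra codes for C1r, the protease of the C1 complex that activates C1s. It read 12.77, 13.02 and 13.07 in tumor-bearing livers, against 12.50, 12.50 and 12.28 in control livers. The groups did not overlap, and the log2 difference was 0.52 ± 0.12 (SE, n = 3 each, 1.44-fold, adjusted p = 0.0721), the smallest adjusted p among the members. C1s1 codes for C1s, which cleaves C4 and C2. It read 12.05, 11.81 and 12.71 in tumor-bearing livers, against 11.66, 11.69 and 11.47 in control livers. Its groups did not overlap either, with a difference of 0.58 ± 0.24 (adjusted p = 0.201), but the highest array decided much of it, and the difference was 0.32 without tumor-bearing replicate 3. Mouse has close copies of both genes, C1rb and C1s2, and a probe set listed for C1ra and C1rb together differed by 0.28 ± 0.16 (adjusted p = 0.319), so signal from the copies cannot be told apart.

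No lectin pathway gene passed. Masp2 codes for the protease that cleaves C4 and C2 once mannose-binding lectin has bound. It read 11.27, 11.30 and 11.10 in tumor-bearing livers, against 10.88, 10.86 and 10.96 in control livers. All 3 tumor-bearing arrays lay above all controls, with a difference of 0.33 ± 0.08 (adjusted p = 0.0907), and its other probe set differed by 0.40 ± 0.18 with overlapping arrays. Masp1, the companion protease, averaged 11.93 ± 0.14 (tumor-bearing) against 12.09 ± 0.04 (control) (SD, n = 3 each), a difference of -0.16 ± 0.09 (SE, adjusted p = 0.316). Of its 3 other measured probe sets, those that differed by 0.16 and 0.10 leaned up and the one at -0.25 leaned down, all with overlapping arrays. The mannose-binding lectin genes themselves differed little, Mbl1 by -0.08 ± 0.11 and Mbl2 by -0.03 ± 0.07 (intervals -0.35 to 0.19 and -0.20 to 0.14).

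The windows before the transcription starts are shown for 2 pairs of neighbouring genes and for Masp2. C1ra and C1s1 lie next to each other on chromosome 6 with no other protein-coding gene between them and differed by 0.52 and 0.58 in liver. F11 and Klkb1, neighbours on chromosome 8, differed by 0.61 and 0.01. None of the 4 passed, and the likeness within a pair was not tested. The other neighbouring pairs among the members were C8b with C8a, at 0.20 and 0.06, and F7 with F10, at -0.04 and 0.09. The 250 bases before the start are from RefSeq (GRCm38.p6), 5′ to 3′, with matches to any of 6 searched motifs in capitals.
C1ra (chr6:124512371-124512620, plus strand): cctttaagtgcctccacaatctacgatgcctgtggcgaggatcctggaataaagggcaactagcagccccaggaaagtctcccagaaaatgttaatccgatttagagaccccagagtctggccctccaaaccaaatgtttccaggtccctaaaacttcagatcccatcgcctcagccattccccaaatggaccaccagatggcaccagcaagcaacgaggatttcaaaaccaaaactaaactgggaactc
C1s1 (chr6:124542360-124542609, minus strand): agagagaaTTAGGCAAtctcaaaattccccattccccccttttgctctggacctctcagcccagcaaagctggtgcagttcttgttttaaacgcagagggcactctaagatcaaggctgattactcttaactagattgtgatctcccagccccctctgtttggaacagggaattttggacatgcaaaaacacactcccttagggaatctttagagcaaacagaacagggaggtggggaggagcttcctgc
Masp2 (chr4:148602294-148602543, plus strand): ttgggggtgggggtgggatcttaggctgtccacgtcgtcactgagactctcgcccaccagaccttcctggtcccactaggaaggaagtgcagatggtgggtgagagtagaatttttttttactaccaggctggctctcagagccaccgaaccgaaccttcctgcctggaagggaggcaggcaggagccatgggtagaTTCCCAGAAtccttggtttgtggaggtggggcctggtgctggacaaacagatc
F11 (chr8:45262032-45262281, minus strand): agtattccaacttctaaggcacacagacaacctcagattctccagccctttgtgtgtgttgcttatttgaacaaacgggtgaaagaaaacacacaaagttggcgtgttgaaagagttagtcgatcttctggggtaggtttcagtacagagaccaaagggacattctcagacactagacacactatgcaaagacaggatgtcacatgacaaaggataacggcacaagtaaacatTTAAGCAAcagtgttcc
Klkb1 (chr8:45294836-45295085, minus strand): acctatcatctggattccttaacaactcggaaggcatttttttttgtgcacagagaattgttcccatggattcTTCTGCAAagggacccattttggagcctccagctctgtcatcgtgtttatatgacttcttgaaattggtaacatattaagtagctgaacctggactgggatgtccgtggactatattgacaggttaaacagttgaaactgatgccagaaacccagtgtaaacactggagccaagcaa
Both strands were searched for TTCNNNGAA (STAT factors), TTGCNNAA (C/EBP), CAAAGTNCA (HNF4), and the motifs of HNF1, NF-kappa-B and the interferon-stimulated response element, named without their letters. The capitals in Masp2 are a match to the STAT letters, 53 bases before the start. Those in C1s1, F11 and Klkb1 are matches to the C/EBP letters, at 242, 17 and 177 bases. C1ra held no match, nor did a second window listed for C1s1. Of the 21 members with a window, 3 held the STAT letters (C8a, F9 and Masp2), where 7.02% of all 32851 windows did. Members were counted by gene, if any window of the gene held the letters. The shares over all are by window, so the 2 are not on the same footing. The C/EBP letters were in 5 (C1s1, C9, F11, F9 and Klkb1), against 9.56% of all windows, and the HNF1 letters in F13b and Hc, against 0.371%. F9 alone held the HNF4 letters (1.19% of all windows), and no member held the NF-kappa-B letters (0.356%) or the interferon element (2.98%). F11, with a difference of 0.61, and Klkb1, with 0.01, both held the C/EBP letters. These matches describe letters in a window, and say nothing of binding.

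The 2 measured members of the central and alternative pathway were both higher. Cfi codes for factor I, the protease that inactivates C3b and C4b. It read 14.58, 14.51 and 14.54 in tumor-bearing livers, against 14.30, 14.31 and 14.32 in control livers. The control arrays were nearly alike, the groups did not overlap, and the difference was 0.24 ± 0.06 (adjusted p = 0.0971). Cfb codes for factor B, the protease subunit of the alternative convertase. It read 14.22, 14.21 and 14.21 in tumor-bearing livers, against 13.99, 14.08 and 14.04 in control livers. The tumor-bearing arrays were nearly alike, the groups did not overlap, and the difference was 0.18 ± 0.06 (adjusted p = 0.16). The probe set listed for C4a and C4b differed by 0.09 ± 0.07 in liver and overlapped between groups (adjusted p = 0.483).

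All 5 terminal components had higher means in tumor-bearing livers, and none passed. Their median difference was 0.22. C9 codes for the pore-forming subunit of the membrane attack complex. It read 14.61, 14.53 and 14.53 in tumor-bearing livers, against 14.25, 14.28 and 14.49 in control livers. Its groups did not overlap, with a difference of 0.22 ± 0.09 (adjusted p = 0.196). C6 codes for a component that binds C5b. It read 10.25, 10.41 and 10.23 in tumor-bearing livers, against 9.95, 9.81 and 10.44 in control livers. Control replicate 3 was the highest of all 6 arrays, and the difference of 0.23 ± 0.18 was 0.11 without control replicate 2 and 0.42 without control replicate 3. C8b codes for the beta chain of C8. It read 12.12, 12.52 and 12.45 in tumor-bearing livers, against 12.07, 11.96 and 12.45 in control livers. The groups overlapped, and the difference of 0.20 ± 0.17 was 0.10 without control replicate 2 and 0.35 without control replicate 3. C8a, its neighbour on chromosome 4, codes for the alpha chain and differed by 0.06 ± 0.12.

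Hc, the gene of C5 from which the C5a peptide and the first piece of the pore are cut, stood apart from the other members. It read 14.29, 13.04 and 12.88 in tumor-bearing livers, against 12.80, 13.02 and 12.79 in control livers. Only tumor-bearing replicate 1 was high, 1.25 above the highest of the other 5 liver arrays, which is 2.39-fold. The difference between groups of 0.53 ± 0.39 (adjusted p = 0.426) was 0.08 without that array. In lung Hc read 12.46, 10.55 and 10.77 in tumor-bearing lungs, against 10.58, 10.90 and 11.08 in control lungs. There too the array of tumor-bearing replicate 1 was the high one, 1.38 above the highest of the other 5 lung arrays (2.6-fold), and the difference of 0.40 ± 0.51 was -0.20 without it. That lung array is also one of the 2 rich in hepatocyte transcripts, and the other one, control replicate 3, read 11.08. The part of hepatocyte RNA in the lung value was not tested. The labels give the same number to that liver and that lung, but do not say that a number marks a mouse.

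**Figure D2:**
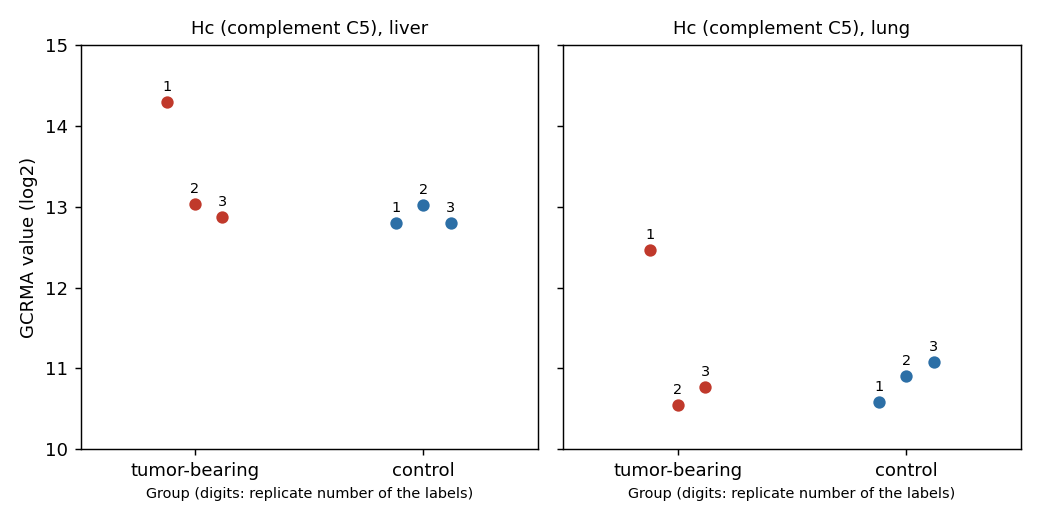
Hc on the 6 liver arrays (left) and the 6 lung arrays (right), as log2 GCRMA values on the y axis, tumor-bearing beside control mice, with the replicate number of the labels above each point. Tumor-bearing replicate 1 lies above the other 5 arrays in both tissues, which lie between 12.79 and 13.04 in liver and between 10.55 and 11.08 in lung.

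The contact and intrinsic coagulation genes held both the largest difference and the one member that was lower without overlap. F11 codes for factor XI, which activates factor IX. It read 12.16, 12.42 and 12.26 in tumor-bearing livers, against 11.70, 11.27 and 12.05 in control livers. The groups did not overlap although the controls spread widely, and the difference was 0.61 ± 0.21 (1.52-fold, adjusted p = 0.148), 0.41 without control replicate 2. F12 codes for factor XII, which starts the contact pathway. It averaged 13.16 ± 0.11 (tumor-bearing) against 13.31 ± 0.02 (control) (SD, n = 3 each), a difference of -0.14 ± 0.08 (SE, adjusted p = 0.307), with every tumor-bearing array under every control array. Klkb1 (plasma prekallikrein), Kng1 (kininogen) and F9 (factor IX) differed by 0.01 ± 0.07, 0.04 ± 0.08 and 0.01 ± 0.08 with overlapping arrays. Their 95% intervals were -0.17 to 0.19, -0.16 to 0.25 and -0.18 to 0.19.

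In the extrinsic and common pathway 4 of 5 genes had a higher mean in tumor-bearing livers, with a median difference of 0.08, and none passed. F13b, which codes for the carrier subunit of the fibrin cross-linking factor XIII, averaged 13.43 ± 0.07 (tumor-bearing) against 13.25 ± 0.11 (control), a difference of 0.19 ± 0.09 (adjusted p = 0.236) without overlap. F2, the prothrombin gene, differed by only 0.06 ± 0.06, again without overlap, and it averaged 14.89 ± 0.03 (tumor-bearing) against 14.83 ± 0.02 (control). F5, F10 and F7, which code for factors V, X and VII, differed by 0.08 ± 0.11, 0.09 ± 0.09 and -0.04 ± 0.08 with overlapping arrays. The probe sets of F10 did not point one way. The 2 that were dimmer differed by -0.09 ± 0.11 and -0.31 ± 0.10, and the arrays of the second did not overlap, with tumor-bearing livers lower (adjusted p = 0.13).

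Among inhibitors and fibrinolysis genes, Serpinf2 had the largest difference. It codes for alpha-2-antiplasmin, the main inhibitor of plasmin, and read 15.13, 15.22 and 15.15 in tumor-bearing livers, against 14.86, 14.94 and 14.85 in control livers. The groups were apart by more than the spread within either, with a difference of 0.29 ± 0.07 (1.22-fold, adjusted p = 0.082). Plg, the plasminogen gene, averaged 15.03 ± 0.05 (tumor-bearing) against 14.88 ± 0.04 (control) (0.15 ± 0.07, adjusted p = 0.215), also without overlap. Serpinc1, the antithrombin gene, differed by 0.07 ± 0.06 without overlap and Proc, the protein C gene, by 0.04 ± 0.07 with overlap.

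Summed markers of Kupffer cells, of stellate cells with fibroblasts and of neutrophils were higher in tumor-bearing livers. Those of endothelial cells overlapped between groups (10.003 to 10.308 in tumor-bearing and 10.077 to 10.191 in control livers). The 3 macrophage markers overlapped too, summing to 11.72 to 11.93 in tumor-bearing and 11.45 to 11.84 in control livers. Adgre1, Csf1r and Cd68 of that list differed by 0.01, 0.21 and 0.46, all with overlapping arrays. The summed level (log2) of the 4 of 5 Kupffer cell markers matched was 13.74 to 14.01 in tumor-bearing and 13.31 to 13.67 in control livers. Among them Clec4f and Cd5l were higher without overlap, Vsig4 was higher with overlap and Marco was too low to be tested. The 5 stellate cell and fibroblast markers summed to 13.56 to 13.79 in tumor-bearing and 13.28 to 13.46 in control livers. Of the 4 stellate and fibroblast markers tested 2 were higher and 2 lower, and the bright Dcn and Col3a1 carried the sum. Col3a1, a fibrillar collagen gene, differed by 0.60 ± 0.10 (adjusted p = 0.0529) and Dcn, the decorin gene, by 0.30 ± 0.10. Lrat and Pdgfrb differed by -0.18 ± 0.33 and -0.0031 with overlapping arrays. The 8 neutrophil markers summed to 10.13 to 11.27 in tumor-bearing and 6.73 to 9.18 in control livers, mostly S100a8 and S100a9, while Ltf, Cd177 and Camp stayed at or under 2.40 on every liver array. The part of these cells in the values of C1ra, C1s1 or other members was not tested. The hepatocyte markers themselves were higher in 6 of 7 genes with a median of 0.04.

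In lung, 8 of the 27 genes were above 4 on at least 3 of the 6 arrays by their brightest probe set and were tested. At a limma adjusted p under 0.05, 0 of the 8 passed (0.734% of all 7907 genes did), and 0 had an unadjusted p under 0.05 (13.2% of all genes). Of the 8, 5 had a higher mean in tumor-bearing lungs, where 47% of all genes did. The groups overlapped for all 8, where 8.99% of all genes were higher and 9.57% lower without overlap. The median difference was 0.15, against -0.01 over all genes, and it was -0.08 without tumor-bearing replicate 1 and 0.00116 with the pair of hepatocyte-rich arrays left out. Arrays of a group spread more than in liver, with a median SD of 0.472, and for 5 of the 8 the 95% interval reached past 1 log2 unit in at least one direction.

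C1s1 and C1ra had the highest lung differences beside Hc. C1s1 read 9.22, 9.18 and 10.27 in tumor-bearing lungs, against 9.02, 9.25 and 8.85 in control lungs. Tumor-bearing replicate 3 alone was high, and the difference of 0.52 ± 0.32 (adjusted p = 0.559) was 0.16 without it. C1ra read 9.91, 10.19 and 10.40 in tumor-bearing lungs, against 9.80, 10.12 and 9.73 in control lungs, a difference of 0.28 ± 0.17 (adjusted p = 0.557). Tumor-bearing replicate 3 had the highest C1s1 value of its tissue and group in liver as well. The probe set listed for C4a and C4b, which names neither gene, read 11.32, 11.41 and 10.83 in tumor-bearing lungs, against 10.58, 10.75 and 10.47 in control lungs. Its groups did not overlap, with a difference of 0.58 ± 0.18 in a fit over all probe sets, and it did not pass (adjusted p = 0.278).

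Cfb read 8.34, 7.85 and 7.47 in tumor-bearing lungs, against 7.51, 7.70 and 7.67 in control lungs. The difference of 0.26 ± 0.22 was within the spread of the tumor-bearing arrays (adjusted p = 0.687), and was 0.03 without tumor-bearing replicate 1. C6 read 10.12, 9.16 and 9.36 in tumor-bearing lungs, against 9.53, 10.09 and 9.73 in control lungs, with tumor-bearing replicate 1 and control replicate 2 highest, and differed by -0.23 ± 0.28 (adjusted p = 0.777). Factor V is the cofactor of factor X in making thrombin. Its gene F5 read 6.19, 9.72 and 8.11 in tumor-bearing lungs, against 8.84, 7.09 and 8.53 in control lungs. The lowest and the highest of the 6 arrays were both tumor-bearing, and the difference of -0.14 ± 0.95 had an interval of -2.46 to 2.18. Its other probe set had the same order of arrays, reading 5.32, 8.80 and 7.23 in tumor-bearing lungs, against 7.96, 6.60 and 7.45 in control lungs. F7 read 9.10, 7.80 and 7.88 in tumor-bearing lungs, against 8.02, 8.79 and 8.60 in control lungs, again highest in tumor-bearing replicate 1 and control replicate 2, with a difference of -0.21 ± 0.40 (adjusted p = 0.871). F10 read 7.89, 6.95 and 6.06 in tumor-bearing lungs, against 6.46, 6.65 and 7.67 in control lungs. Its 2 highest arrays were those rich in hepatocyte transcripts, one in each group, and the difference was 0.04 ± 0.53. Its 2 other probe sets stayed under 4 on all lung arrays.

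**Figure D3:**
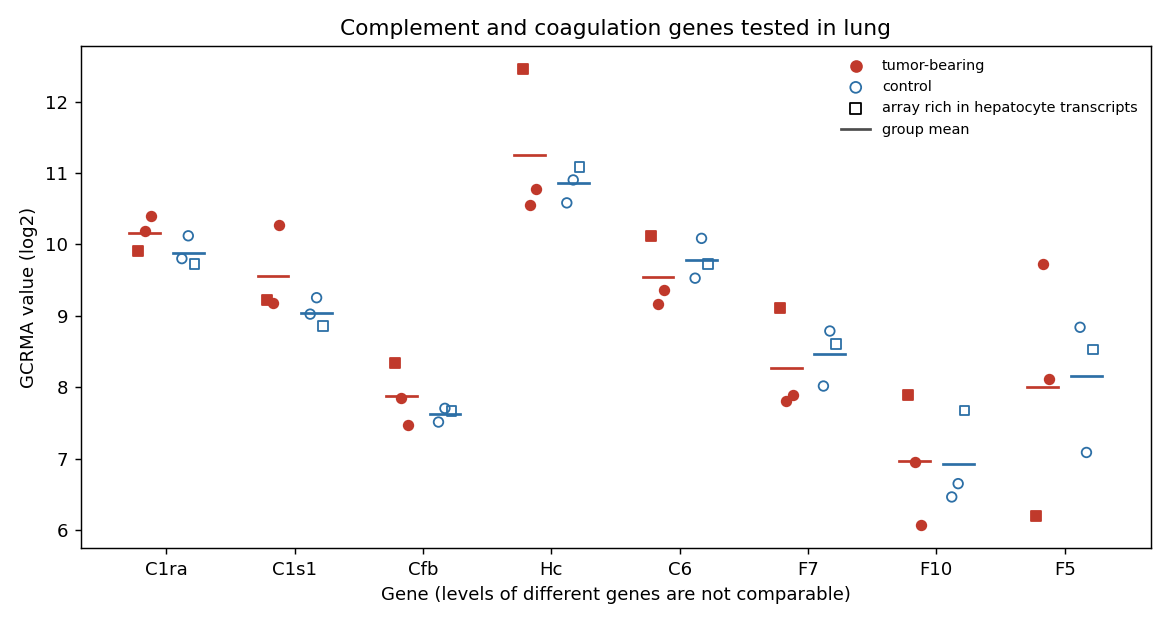
The 8 genes tested in lung, with log2 GCRMA values on the y axis for each array, tumor-bearing left of control for each gene, squares for the 2 arrays rich in hepatocyte transcripts and bars for group means. The groups overlap for every gene, and Hc, C1s1 and F7 each have 1 tumor-bearing array well above the other 2, while the tumor-bearing arrays of F5 are spread apart.

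The other 19 genes were measured in liver but mostly near the lowest value in lung. By their brightest probe set, 10 of these stayed at or under 4 on every lung array, and 9 passed 4 on 1 or 2 lung arrays. On the 4 lung arrays with less hepatocyte RNA none of the 19 read above 3.88 by that probe set. A dimmer probe set of Masp1 read 3.09, 4.03 and 4.06 in tumor-bearing lungs, against 4.06, 3.76 and 4.11 in control lungs. In a limma fit over all probe sets it differed by -0.25 ± 0.29 with overlapping arrays (adjusted p = 0.757). Kng1 read 8.35 on the array of tumor-bearing replicate 1 and 8.72 on that of control replicate 3, while the remaining 4 read 2.17 to 3.56. Serpinc1 read 7.22 and 8.02 on that pair of arrays and 2.13 to 2.33 on the remaining 4. Plg read 5.22 and 8.14 on the pair and 2.13 to 2.14 on the remaining 4. In 13 of the 19 both arrays lay above the other 4. Masp2 stayed at the lowest value on every lung array. Each group held 1 of the arrays rich in hepatocyte transcripts. Their summed marker level was 15.11 in tumor-bearing replicate 1 and 15.57 in control replicate 3. Control replicate 1 came next, at 12.45. All 5 hepatocyte markers tested in lung had lower means in tumor-bearing lungs, with a median of -0.53 and overlapping arrays. The part of hepatocyte RNA in these readings was not tested.

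**Figure D4:**
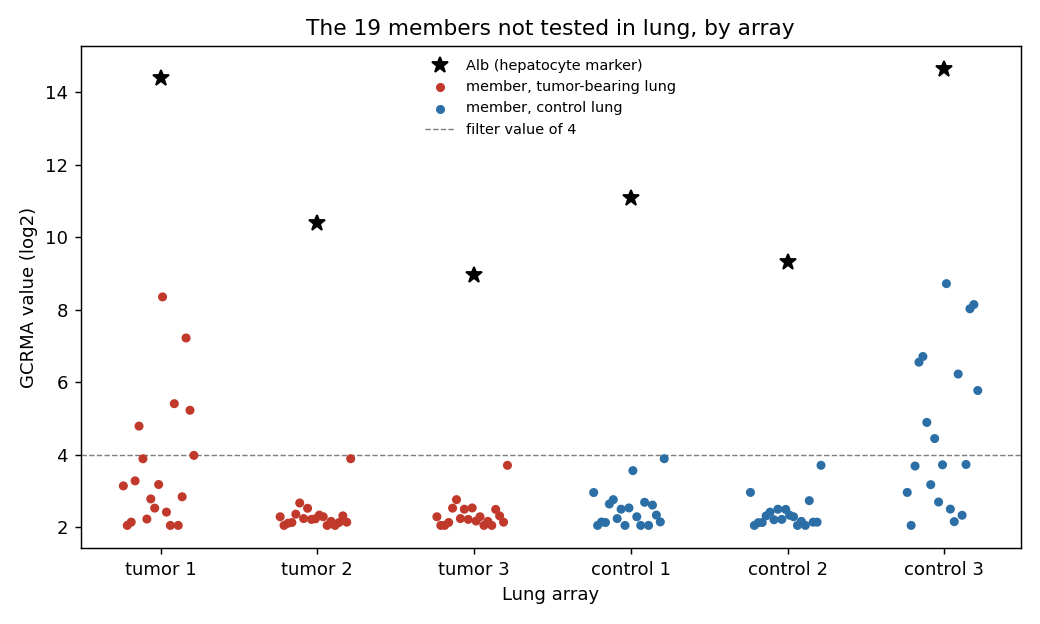
The 19 genes not tested in lung (points) and Alb (stars) on each of the 6 lung arrays, as log2 GCRMA values, with the filter value of 4 as a dashed line. Points above the line lie on tumor-bearing replicate 1 and control replicate 3, the arrays where Alb reads 14.39 and 14.65.

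The difference between the tissues was tested for the 8 genes measured in both. At a limma adjusted p under 0.05, 0 members passed (1.03% of 7194 genes did), and 0 had an unadjusted p under 0.05 (17.6% of all genes). The tumor difference was higher in lung than in liver for 1 of the 8, Cfb, where it was higher for 58.3% of all genes. That count was 4 with array weights, and 4 without tumor-bearing lung replicate 2 or without tumor-bearing lung replicate 3. With any other single array left out it was 1 or 2. The smallest p values were those of C6, whose tumor difference was -0.23 in lung and 0.23 in liver, -0.47 ± 0.35 apart (SE, adjusted p = 0.519), and of C1ra, at 0.28 in lung and 0.52 in liver, -0.24 ± 0.21 apart (adjusted p = 0.585). With 1 array left out, C6 in lung ran from -0.52 (without tumor-bearing replicate 1) to -0.04 (without tumor-bearing replicate 2). The same lung arrays moved its difference between tissues to -0.75 and -0.27. That of C1ra was -0.11 without tumor-bearing lung replicate 1, -0.12 without control lung replicate 2 and -0.36 without tumor-bearing lung replicate 3. The interval for C1ra was -0.72 to 0.23, and a difference between tissues of that size could not be told from none. Without the 2 lung arrays rich in hepatocyte transcripts, the count stayed at 0 in lung and in the difference between tissues.

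Other genes of both cascades, and liver genes around them, were counted by list, and none passed in liver. Of 20 further soluble complement genes 12 were matched and tested in liver, 10 higher and 2 lower with 0 past the threshold, and a median of 0.20. C1qa, a chain of the C1q recognition unit that macrophages make, differed by 0.47 ± 0.15 (adjusted p = 0.129) and Cfp, the properdin gene, by 0.42 ± 0.17 (adjusted p = 0.194). Of 21 further coagulation and fibrinolysis genes tested 15 were higher and 6 lower, 0 past the threshold, with a median of 0.11. The largest values were those of endothelial genes, Thbd (thrombomodulin) at -1.41 ± 0.72 and Vwf (von Willebrand factor) at -1.06 ± 0.63, with overlapping arrays. Both read highest on control replicate 2, at 7.17 and 6.55, the liver array with the highest summed alveolar markers. The part of lung RNA in these readings was not tested. Of 8 receptors and membrane regulators 6 were higher, 0 past the threshold, Cd55 by 0.99 ± 0.64 and Itgb2 by 0.43 ± 0.31. Among 11 liver transcription factor genes 8 were higher and 0 passed. Onecut1 differed by 1.61 ± 0.60 (adjusted p = 0.17) and Cebpd, which codes for a C/EBP factor of the acute phase, by 0.89 ± 0.21 (adjusted p = 0.0817), neither with overlapping arrays. Of 17 acute phase genes 10 were higher and 7 lower, 0 passed, and the median was 0.04. Serpina3n, a serpin gene, differed by 0.59 ± 0.10 without overlap (adjusted p = 0.0545) and Orm2 (orosomucoid) by -0.48 ± 0.39 with overlap.

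The same lists were counted in lung. Itgam, a chain of complement receptor 3 on neutrophils and macrophages, averaged 5.44 ± 0.79 (tumor-bearing) against 2.61 ± 0.23 (control) (SD, n = 3 each), with no overlap and an adjusted p of 0.0513. It passed the filter on low values through the tumor-bearing arrays alone, so that it had to differ to be tested. Cd59a, which codes for an inhibitor of the membrane pore, averaged 8.51 ± 0.42 (tumor-bearing) against 9.29 ± 0.07 (control), lower without overlap (adjusted p = 0.209). Of the 9 receptor and regulator genes tested 0 passed, 6 higher and 3 lower, with a median of 0.04. Of 8 further soluble complement genes 0 passed, 6 were higher and the median was 0.32, with Cfp at 1.32 ± 0.54 (no overlap, adjusted p = 0.386) and C1qb at 0.46 ± 0.23. The 8 neutrophil markers, of which 5 rose past the threshold, summed to 16.47 to 16.67 in tumor-bearing and 12.63 to 14.46 in control lungs, and their part in Itgam and Cfp was not tested. Of those 5, Camp, Cd177, Ltf and Mmp8 stayed under 4 in every control lung and entered the test through the tumor-bearing arrays alone, so their calls are no independent support. Of 19 coagulation and fibrinolysis genes 9 were higher and 10 lower with 0 past the threshold. Fga, a fibrinogen chain gene, read 9.98, 4.10 and 2.90 in tumor-bearing lungs, against 6.71, 3.30 and 11.16 in control lungs, highest on the arrays rich in hepatocyte transcripts. Pzp, a protease inhibitor gene, read 9.61, 3.18 and 3.04 in tumor-bearing lungs, against 5.39, 3.04 and 10.51 in control lungs, again highest on those 2 arrays. Of 6 transcription factor genes tested 2 were higher and 4 lower with 0 past the threshold, Foxa1 by -0.37 ± 0.08 and Cebpa by -0.36 ± 0.26. Of 10 acute phase genes 4 were higher and 6 lower with 0 past the threshold, Saa3 by 2.13 ± 0.72 (no overlap, adjusted p = 0.295) and Itih4 by -0.82 ± 0.58.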

How the data were processed

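Affymetrix mouse arrays read RNA from both organs. The authors deposited log2 values per probe set, made with GCRMA per the submitters' processing notes, which also name limma and no version. GCRMA adjusts for probe sequence and forces arrays to one distribution, so small shifts shared by many genes can be altered.

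Of 22626 probe sets, 20380 have 1 gene symbol, 691 several, and 1555 none listed. The brightest probe set on average stood for a gene, tested where over 4 (log2) on 3 or more arrays of a tissue. Groups were compared within a tissue, and the difference between tissues over 12 arrays, using limma 3.58.1 (lmFit, eBayes) in R 4.3.3 with Benjamini-Hochberg adjustment over all genes tested and a threshold of 0.05. Precision is limited by having 3 arrays a group, and p-values measure only the spread between these samples. The steps were tested on simulated data with added changes larger than the difference of any member. That test does not show how often differences as small as those of the members would be found.

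Array values are printed for the 10 liver members with the largest absolute difference and all 8 lung members, and for Cfb in liver, which was added after its values were seen. Of each other list the 2 largest per tissue are named; other members, dimmer probe sets and lung readings of untested members were named after their values were seen. Same-numbered arrays deviated from their group means with correlations of -0.035 to 0.131 in liver and -0.347 to 0.218 in lung. Between lung and liver of one group all 6 correlations were positive, at 0.037 to 0.132. Correlations between arrays of different numbers were not computed, so these values cannot tell whether a number marks a mouse. Numbers were not taken as pairs. The difference between tissues treats the 12 arrays as independent, which ignores any mouse shared by a lung and a liver array. The members and lists were chosen with earlier results of these data known; leaving out both hepatocyte-rich lung arrays was chosen after seeing the data. Promoter windows were found for 21 members.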

Additional observations from a re-analysis of the deposited data

Results flagged for a closer look

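The probe set listed for both C4a and C4b, which the gene tests left out because it names no single gene, had all 3 tumor-bearing lungs above all 3 control lungs, with a difference of 0.58 on the log2 scale (adjusted p = 0.278 over all probe sets). No group held enough arrays for a test of single outlying arrays.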

How the results depend on the processing

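In liver 0 of the 27 members passed, and 1 passed with no filter on low values, 2 with the trend option of eBayes, 1 with all 12 arrays in 1 fit and 4 at an adjusted p under 0.1. These were Cfi (adjusted p = 0.0456 without the filter), Serpinf2 and Cfi (0.0438 each with the trend) and Masp2 (0.0261 with all arrays). The lung values of Masp2 all stood at the lowest value and added no spread to the fit of all arrays. The liver median of 0.09 ran from 0.0666 to 0.160 with 1 array left out and from 0.07 to 0.12 under the other settings. In lung and in the difference between tissues 0 members passed under every setting run, and the lung median of 0.15 was -0.23 with no filter, which adds the genes near the lowest value, and ran from -0.08 to 0.24 with 1 array left out. With 1 lung array left out the differences ran from -0.20 to 0.76 for Hc, -0.999 to 0.765 for F5, -0.626 to 0.0240 for F7 and -0.42 to 0.49 for F10. Without both lung arrays rich in hepatocyte transcripts they were -0.0850 for Hc, 0.953 for F5 and -0.0465 for F10, with a lung median of 0.00116, and with array weights F7 was at 0.0417; the cause was not tested. With the replicate number as a replicate block 0 members passed in either tissue, and over all genes 0 passed in liver, against 144 without it, 1 in lung, against 58, and 0 for the difference between tissues, against 74. Over all genes, liver calls were 0 or 1 with 1 array left out, 62 with no filter, 351 with a filter of 6, 302 with the trend and 729 with all 12 arrays. Lung calls were 0 to 14 with 1 array left out, 11 with no filter, 99 with array weights, 231 with all 12 arrays and 0 without both hepatocyte-rich arrays. Difference calls were 28 without that pair and 26 to 99 with 1 array left out. Most members of the liver lie far above the lowest value. In lung 19 of 27 lie, by their brightest probe set, too close to it to be tested.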

Other observations

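The high Hc reading under 1 replicate number in both tissues was set against all genes, a count chosen after the values of Hc were seen. Of the 7194 genes measured in lung and liver, Hc was the 1 gene that read over 1 log2 unit above the other 5 arrays on tumor-bearing replicate 1 in both tissues. For tumor-bearing replicate 3 there were 5 such genes, Gbp8, Ifi202b, Ifi47, Igtp and Irgm2, which are interferon-inducible genes. For tumor-bearing replicate 2 and for each of the 3 control numbers there were 0.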
